A study of Mus musculus with 26 samples.

Results

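The genes described here encode 8 proteins of white blood cells, most of them on the cell surface: Ptprc, Cd53, Cd52, Laptm5, Spn, Cd48, Slamf1 and Cd34. They were taken as the probe sets whose single gene symbol is one of these names, which gave 128 of the 631748 probe sets of the array and 8 of the 18341 genes tested. Ptprc had 53 probe sets, Cd34 17, Laptm5 16, Cd53, Cd48 and Slamf1 10 each, Spn 7 and Cd52 5. A probe set is a small group of probes that mostly reads part of an exon. A gene value is the median of the brighter 50% of its probe sets, those with the highest means over the 26 arrays. All values are on the log2 scale of RMA, the method that corrects the background, normalizes the arrays and summarises the probes, so a difference of 1 is a doubling of signal. Each gene is compared with itself across arrays, because signals of different probes are not on a common scale of abundance.

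The study measured mouse RNA on 26 exon arrays, 14 labelled 129S2/SvPas and 12 labelled C57BL/6, both inbred strains used to derive embryonic stem cells. Every sample is labelled as an embryoid body cell, from the aggregates in which embryonic stem cells differentiate, and the source name holds the letters ES and EB, taken here for embryonic stem cells and embryoid bodies. The sources used here give no treatment, day of culture or age, and do not say whether the samples came from separate cultures. The p-values therefore cover the spread between these arrays, part of which may be technical. The titles run from ES1 to ES26, and ES1 to ES14 are the arrays labelled 129S2/SvPas. Strain labels change once along the titles, so strain and any batch that was not recorded cannot be told apart. The values are described over runs of titles, ES1 to ES12, ES13 to ES14, ES15 to ES20, ES21 to ES24 and ES25 to ES26. These runs are not groups in the labels and were set with earlier results of these data known, so they were not tested against each other.

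The runs differed in markers of many cell types. The mean of 9 markers of pluripotent cells lay between 5.18 and 5.80 in ES1 to ES12, between 8.00 and 8.91 in ES13 and ES14, between 7.91 and 8.69 in ES15 to ES20, between 11.2 and 11.6 in ES21 to ES24, and between 7.23 and 8.32 in ES25 and ES26. The mean of 10 myeloid markers, such as Mpo and Lyz2, lay between 10.6 and 11.5 in ES1 to ES12, between 5.89 and 8.28 in ES15 to ES20, and between 5.54 and 6.03 in the other 8 arrays. ES13 and ES14 therefore stood apart from the other arrays of their label, and results are given with and without them. In bulk RNA, fewer cells of a type and less RNA per cell cannot be told apart.

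Ptprc encodes CD45, a receptor-type tyrosine phosphatase found on nearly all nucleated blood cells, where it removes the inhibitory phosphate from kinases of the Src family. Its transcript is spliced differently in different leukocytes through a set of variable exons near its start. Cd53 is a tetraspanin, a membrane organizer restricted to leukocytes, Cd52 is a very short surface peptide on a lipid anchor, and Laptm5 is a lysosomal membrane protein of blood cells that lowers the amount of antigen receptors. Spn encodes CD43, a heavily sialylated mucin of leukocytes. Cd48 and Slamf1 belong to the SLAM family of immune cell receptors, and in mouse bone marrow their presence and absence are used together to sort blood stem cells. Cd34 is a sialomucin of blood progenitors that is also made by endothelial, mast and mesenchymal cells.

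The promoters of members with different profiles are shown first, because 6 members, Ptprc, Cd53 and Laptm5 among them, were highest in ES1 to ES12 and Cd34 was not set apart in those arrays. Of the 8 genes, 7 had a promoter window in the RefSeq table of assembly GRCm38.p6, in 8 windows in all because Ptprc had a pair of starts. Each window runs from 250 bases before to 50 bases after an annotated start. Capitals mark the letters GAGGAA, the core read by the blood cell factor PU.1, on either strand, so that TTCCTC is a match on the other strand. The windows shown lie on GRCm38.p6 at chr1:138175256-138175555 on the minus strand for Ptprc, chr3:106790100-106790399 on the minus strand for Cd53, chr4:130913066-130913365 on the plus strand for Laptm5 and chr1:194938571-194938870 on the plus strand for Cd34.
Ptprc: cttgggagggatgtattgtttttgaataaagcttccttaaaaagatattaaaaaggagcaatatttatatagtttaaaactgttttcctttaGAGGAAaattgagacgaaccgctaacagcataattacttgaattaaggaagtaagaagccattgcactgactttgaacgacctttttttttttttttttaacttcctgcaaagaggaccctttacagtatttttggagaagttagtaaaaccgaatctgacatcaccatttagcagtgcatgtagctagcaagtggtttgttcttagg
Cd53: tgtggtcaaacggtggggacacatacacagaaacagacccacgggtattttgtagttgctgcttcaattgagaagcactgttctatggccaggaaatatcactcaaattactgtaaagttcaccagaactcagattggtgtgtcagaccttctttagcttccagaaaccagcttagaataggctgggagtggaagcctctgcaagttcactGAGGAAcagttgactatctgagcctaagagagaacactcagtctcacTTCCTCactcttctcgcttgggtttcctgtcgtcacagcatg
Laptm5: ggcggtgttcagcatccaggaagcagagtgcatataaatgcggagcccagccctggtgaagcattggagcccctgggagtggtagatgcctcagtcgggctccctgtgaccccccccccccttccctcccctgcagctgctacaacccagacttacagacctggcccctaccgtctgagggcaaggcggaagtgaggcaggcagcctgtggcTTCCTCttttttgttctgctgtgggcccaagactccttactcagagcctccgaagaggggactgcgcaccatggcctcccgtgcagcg
Cd34: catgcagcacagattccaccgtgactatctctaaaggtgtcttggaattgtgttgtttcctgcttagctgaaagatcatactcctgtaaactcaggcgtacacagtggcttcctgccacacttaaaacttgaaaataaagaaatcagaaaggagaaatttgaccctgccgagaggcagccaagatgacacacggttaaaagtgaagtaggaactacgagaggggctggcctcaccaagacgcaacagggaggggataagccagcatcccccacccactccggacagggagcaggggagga
GAGGAA occurred in windows of 3 members, once for Ptprc, 2 times for Cd53 and once for Laptm5, and it was present in 28.3% of the 32851 promoter windows of the table. It was not in the windows of Cd34, Cd48, Slamf1 or Spn, nor in the other window of Ptprc. Spn and Cd48, without a match, were also highest in ES1 to ES12. The windows printed hold every match to GAGGAA, so they do not stand for all members highest in these arrays. Of the other letters searched on both strands, the Runx core TGTGGT was in the windows of Cd53 and Cd48, against 16.8% of all windows. The letters TATAAA of the TATA box were in the windows of Ptprc and Laptm5, against 13.6%. They lay 187 bases before the start in Ptprc, on the other strand, and 218 bases before it in Laptm5. The Ets core CCGGAA was in the window of Cd48, against 14.9%. No match shared bases with a match to another motif in the windows printed. A match is a description of these letters only.

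In the comparison of strain labels, 6 of the 8 genes were higher in 129S2/SvPas and 0 were lower, where 21.1% of all genes tested were higher, 22.1% lower and 43.2% either. The 6 were Ptprc, Cd53, Cd52, Laptm5, Spn and Cd48, with differences between 2.62 and 4.76 log2 units, while Cd34 and Slamf1 did not pass the test. The test was limma on all 26 arrays with Benjamini-Hochberg adjustment over the 18341 genes. The same 6 genes had each of ES1 to ES12 above each of ES13 to ES26, a pattern that 7.76% of all genes had. The difference rested on ES1 to ES12: with these arrays left out, 2 arrays labelled 129S2/SvPas stood against 12, limma called 0 of the 8 genes, 2 of them had an unadjusted p under 0.05, and the differences of the 6 genes were negative, from -2.57 to -0.37. Without ES13 and ES14 the same 6 genes were called, with differences between 3.20 and 5.84.

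**Figure D1:**
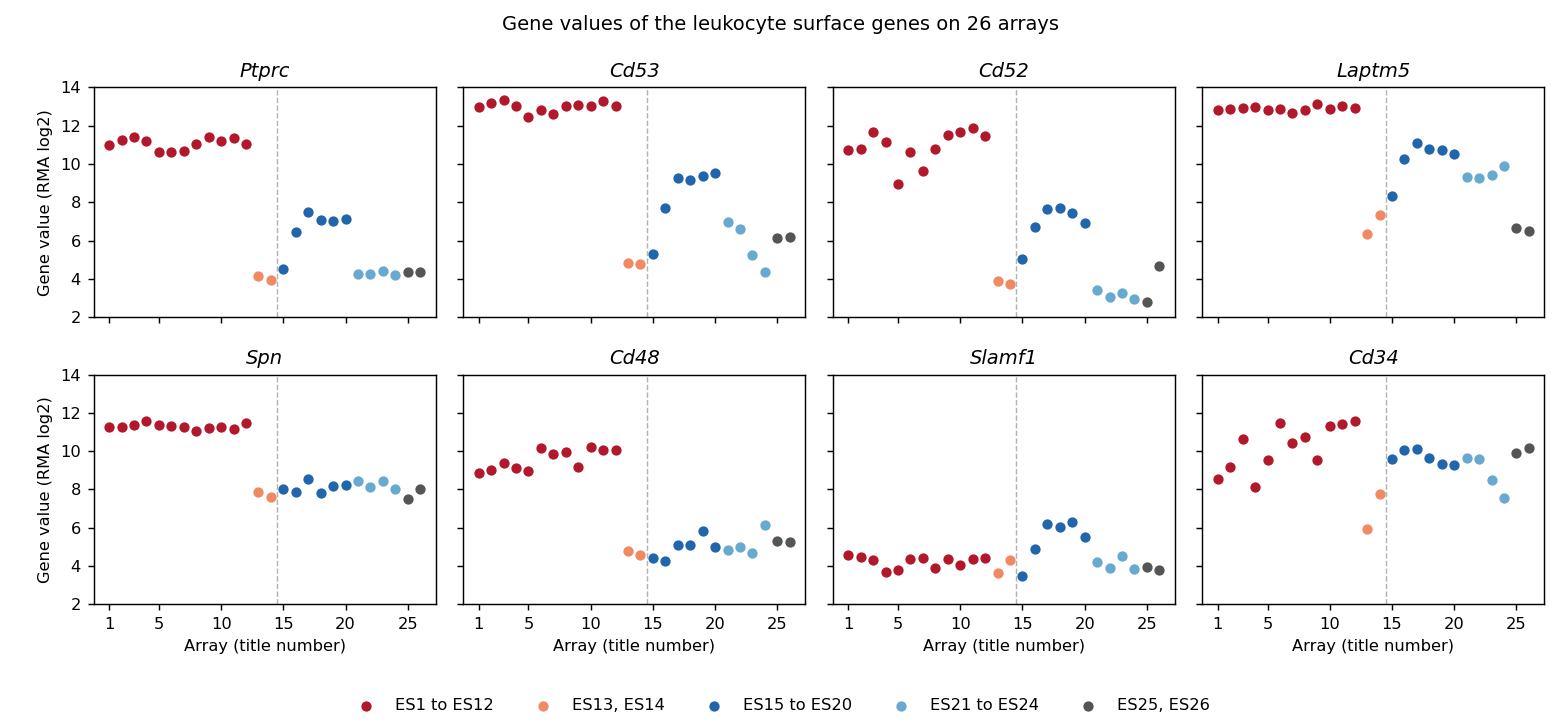
Gene values (RMA log2, y axis) of the 8 genes, one panel each, on the 26 arrays in title order (x axis), coloured by title run. In 6 panels the 12 arrays ES1 to ES12 lie above all others, in the Slamf1 panel the highest points are arrays of ES15 to ES20, and in the Cd34 panel ES13 and ES14 lie below all others but ES24, which falls between them, while the other runs overlap.

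Ptprc lay between 10.62 and 11.42 in ES1 to ES12, with a median of 11.12. It was 4.13 in ES13 and 3.95 in ES14. The values of ES15 to ES20 were 4.52, 6.45, 7.48, 7.08, 7.02 and 7.11, and those of ES21 to ES26 lay between 4.22 and 4.42. ES15, the first array of its run, was thus close to the arrays with the lowest values, and the other arrays of that run were intermediate. By label, Ptprc averaged 10.06 ± 2.57 in 129S2/SvPas (SD, n = 14) and 5.46 ± 1.41 in C57BL/6 (SD, n = 12). The difference was 4.61 ± 0.79 (SE), with an adjusted p of 3.22e-05 in limma. Without ES13 and ES14 it was 5.61. The label ranges overlapped, since ES13 and ES14 were below every array labelled C57BL/6.

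Cd53, the tetraspanin, followed the same order of runs. It lay between 12.43 and 13.33 in ES1 to ES12, with a median of 13.03, and was 4.81 in ES13 and 4.75 in ES14. It was intermediate in ES16 to ES20, at 7.70, 9.27, 9.17, 9.36 and 9.52. ES15, at 5.30, was below ES21, ES22, ES25 and ES26. It was 6.95, 6.59, 5.23 and 4.38 in ES21 to ES24, a wider range than that of Ptprc in the same 4 arrays, and 6.11 and 6.18 in ES25 and ES26. Cd53 averaged 11.81 ± 2.99 in 129S2/SvPas (SD, n = 14) and 7.15 ± 1.82 in C57BL/6 (SD, n = 12), a difference of 4.66 ± 0.94 (SE) with an adjusted p of 0.000216 in limma.

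Cd52, the short surface peptide, was the member with the widest range within ES1 to ES12 after Cd34. It lay between 8.95, in ES5, and 11.86 in ES1 to ES12, with a median of 10.97, and was 3.91 in ES13 and 3.75 in ES14. Arrays ES15 to ES20 had 5.03, 6.69, 7.66, 7.68, 7.46 and 6.90. It lay between 2.78 and 4.67 in ES21 to ES26. ES15 was again the lowest array of its run, and the 6 arrays ES21 to ES26 were below all 6 of ES15 to ES20. Cd52 averaged 9.89 ± 2.69 in 129S2/SvPas (SD, n = 14) and 5.13 ± 2.02 in C57BL/6 (SD, n = 12), a difference of 4.76 ± 0.89 (SE) with an adjusted p of 0.000104 in limma.

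Laptm5, the lysosomal protein, separated the arrays in a different way below ES1 to ES12. It lay between 12.66 and 13.14 in ES1 to ES12, with a median of 12.89, and was 6.34 in ES13 and 7.32 in ES14. For ES15 to ES20 the values were 8.33, 10.28, 11.11, 10.79, 10.74 and 10.52. ES21 to ES24, in which the pluripotency markers were highest, had 9.32, 9.25, 9.43 and 9.91, while ES25 and ES26 had 6.64 and 6.50. Laptm5 in ES21 to ES24 was thus above ES13, ES14, ES25 and ES26 in every array, where the ranges of Ptprc in those arrays all lay between 3.95 and 4.42. Laptm5 averaged 12.02 ± 2.21 in 129S2/SvPas (SD, n = 14) and 9.40 ± 1.54 in C57BL/6 (SD, n = 12), a difference of 2.62 ± 0.72 (SE) with an adjusted p of 0.00413 in limma. Against a minimum difference of 1 log2 unit it did not pass, with an adjusted p of 0.205.

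Spn, the sialomucin CD43, had almost no intermediate values. It lay between 11.07 and 11.59 in ES1 to ES12, with a median of 11.26, and was 7.85 in ES13 and 7.61 in ES14. In ES15 to ES20 it was 8.01, 7.89, 8.56, 7.80, 8.18 and 8.24, and in ES21 to ES26 between 7.49 and 8.42. In the gene value, the arrays ES13 to ES26 overlapped with one another whatever their label, and ES15 to ES20 did not stand out as they did for Ptprc, Cd53 and Cd52. The gene value draws partly on 4511706 and 5356686, probe sets that differed between labels by only 0.64 and 0.41. This narrows its range, so intermediate values may be missed. The probe sets of Spn are described below. Spn averaged 10.78 ± 1.30 in 129S2/SvPas (SD, n = 14) and 8.09 ± 0.30 in C57BL/6 (SD, n = 12), a difference of 2.69 ± 0.37 (SE) with an adjusted p of 1.76e-06 in limma.

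The SLAM family pair differed in profile. Cd48, the lipid-anchored ligand of CD244, lay between 8.87 and 10.19 in ES1 to ES12, with a median of 9.62, and was 4.76 in ES13 and 4.60 in ES14. In ES15 to ES20 it was 4.41, 4.28, 5.10, 5.08, 5.84 and 4.98, and in ES21 to ES26 it lay between 4.65 and 6.16, the highest of these in ES24. Like Spn, Cd48 was thus high in ES1 to ES12 and overlapped among all other arrays. Cd48 averaged 8.87 ± 1.84 in 129S2/SvPas (SD, n = 14) and 5.07 ± 0.54 in C57BL/6 (SD, n = 12), a difference of 3.79 ± 0.52 (SE) with an adjusted p of 2.03e-06 in limma.

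Slamf1, which encodes the self-binding receptor CD150, was low in ES1 to ES12, between 3.68 and 4.57 with a median of 4.35. It was 3.45, 4.90, 6.19, 6.03, 6.31 and 5.51 in ES15 to ES20. Slamf1 was 3.63 in ES13, 4.32 in ES14 and between 3.79 and 4.54 in ES21 to ES26. The 5 highest values were those of ES16 to ES20, and ES15 had the lowest value of the 26 arrays. All 10 probe sets of Slamf1 had their highest median in ES15 to ES20. The share of all probe sets with that pattern was not computed. The one with the largest label difference, 5609881 at -0.95, had a median of 7.09 in ES15 to ES20 against 3.62 in ES1 to ES12. Slamf1 was dim throughout, since its gene value lay below the median gene value of the array in all 26 arrays. By label, Slamf1 averaged 4.19 ± 0.32 in 129S2/SvPas (SD, n = 14) and 4.72 ± 1.03 in C57BL/6 (SD, n = 12). The difference of -0.53 ± 0.28 (SE) did not pass, with an adjusted p of 0.123 in limma, and passed with array weights, at -0.65 and an adjusted p of 0.0397.

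ES15 to ES20 held the highest Slamf1 values, in ES16 to ES20, and also the lowest of all arrays, 3.45 in ES15. In each array of this run, ES15 included, the mean of 6 markers of megakaryocytes and platelets, such as Pf4 and Itga2b, was 7.43 or more. It reached 10.5, against 6.76 to 8.38 in ES1 to ES12 and 5.61 to 6.42 in the other 8 arrays. The mean of 7 erythroid markers lay between 9.29 and 11.5 in ES15 to ES20, against 5.55 to 6.12 in ES1 to ES12, 7.05 to 9.42 in ES13 and ES14, where Slamf1 was 3.63 and 4.32, and 5.33 to 6.05 in ES21 to ES26. The mean of 9 endothelial markers lay between 8.50 and 9.35 in ES15 to ES20, against 6.34 to 6.84 in ES1 to ES12, 7.45 to 8.09 in ES13 and ES14 and 5.42 to 6.87 in ES21 to ES26. Other markers were highest in this run too. The mean of 11 fibroblast and mesenchyme markers had its highest run median there, 10.17. That of 6 markers of blood stem cells and progenitors had a median of 7.99 there, against 7.63 in ES1 to ES12. The part of these cell types in the values of Slamf1 was not tested. Arrays with the 10 myeloid markers at their highest, ES1 to ES12, are those with the 6 genes higher in 129S2/SvPas at their highest. The mean of 8 markers of mast cells and basophils, such as Cpa3 and Mcpt8, lay between 7.79 and 9.13 in ES1 to ES12, against 4.61 to 5.55 in ES13 to ES26. The part of myeloid and mast cells in the member values was not tested.

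Lymphocyte markers did not separate the runs in the same way. The mean of 10 T and NK cell markers was 5.13 to 5.42 in ES1 to ES12, against 5.09 to 5.41 in ES13 to ES26. Of these 10, Cd3d passed, at a difference of 0.23. The mean of 6 B cell markers was 5.54 to 6.15 in ES1 to ES12, against 5.33 to 5.80 in ES13 to ES26. Cd79b, a part of the B cell receptor complex, was the 1 of 6 that passed, at 1.00, while Cd79a had -0.19, Ms4a1 -0.11 and Pax5 0.04. All 10 myeloid markers and 6 of 8 mast cell and basophil markers were higher in 129S2/SvPas, where 21.1% of all genes were.

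Cd34 was present at high signal in most arrays and did not differ by label. In ES1 to ES12 it lay between 8.13, in ES4, and 11.57, in ES12, with a median of 10.52. It was 5.93 in ES13 and 7.73 in ES14. In ES15 to ES20 it lay between 9.26 and 10.12 with a median of 9.61, and in ES21 to ES24 it was 9.62, 9.60, 8.47 and 7.53. ES25 and ES26 had 9.88 and 10.14. The range of ES1 to ES12 therefore contained every array of ES15 to ES20, ES25 and ES26, and ES13 was the lowest array of all. Cd34 averaged 9.72 ± 1.68 in 129S2/SvPas (SD, n = 14) and 9.44 ± 0.76 in C57BL/6 (SD, n = 12). The difference was 0.28 ± 0.50 (SE), with an adjusted p of 0.689 in limma, and 0.76 with an adjusted p of 0.100 without ES13 and ES14.

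Cd34 and Cd48 were highest in the same arrays within ES1 to ES12. Cd34 was 11.44 in ES6, 11.30 in ES10, 11.43 in ES11 and 11.57 in ES12, its 4 highest values. Cd48 was 10.16, 10.19, 10.07 and 10.06 in these arrays, also its 4 highest. Ptprc did not single out these arrays, with 10.62, 11.19, 11.36 and 11.06. In the arrays of lowest Ptprc, Cd34 took values over its range: ES25 and ES26, with Ptprc at 4.34 and 4.37, had Cd34 at 9.88 and 10.14, while ES13 and ES14, with Ptprc at 4.13 and 3.95, had Cd34 at 5.93 and 7.73. The mean of 11 fibroblast and mesenchyme markers lay between 8.46 and 8.81 in ES25 and ES26 and between 7.68 and 8.02 in ES13 and ES14. The other runs did not follow that order. This mean had a median of 6.06 over ES1 to ES12, which hold the 4 highest Cd34 values. It was 7.65 over ES21 to ES24, where Cd34 lay between 7.53 and 9.62. Over ES15 to ES20 it was 10.17, with Cd34 between 9.26 and 10.12. The part of fibroblasts and mesenchyme in the Cd34 values was not tested.

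**Figure D2:**
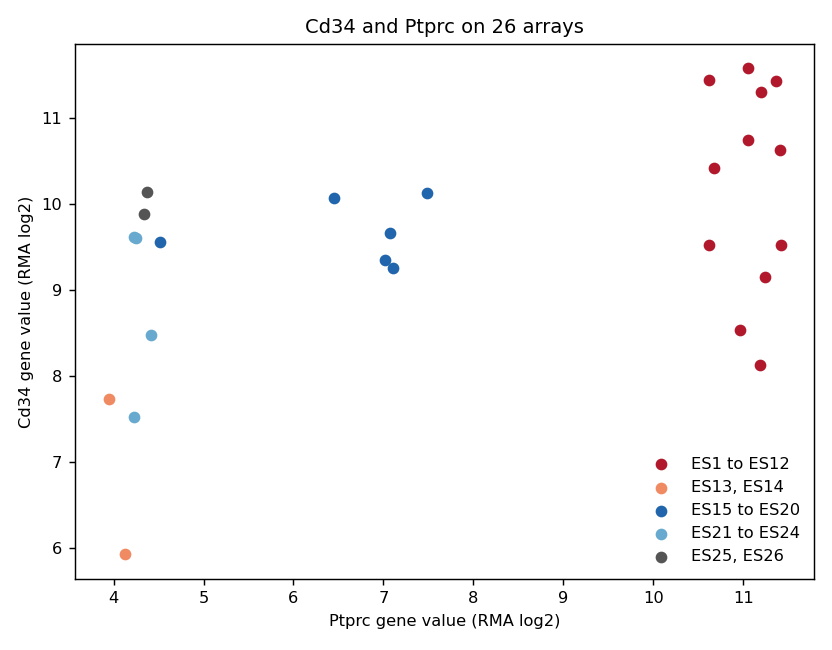
Gene value of Cd34 (y axis, RMA log2) against that of Ptprc (x axis, RMA log2), one point per array, coloured by title run. ES1 to ES12 lie at Ptprc values above 10.6 with Cd34 between 8.13 and 11.57, and the arrays with Ptprc below 4.6 hold Cd34 values from 5.93 to 10.14.

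Within each member, most probe sets moved with their gene. Among probe sets with 1 symbol, 18.1% were higher in 129S2/SvPas by limma and 20.6% lower. All 10 probe sets of Cd53, all 5 of Cd52 and all 7 of Spn were higher, as were 52 of 53 of Ptprc, 14 of 16 of Laptm5 and 7 of 10 of Cd48. Of the 17 of Cd34, 0 were higher and 1 was lower, 5529857 at -0.46. Of the 10 of Slamf1, 0 were higher and 1 was lower, 5503057 at -0.59. The arrays ES1 to ES12 all lay above ES13 to ES26 in 47 probe sets of Ptprc, 10 of Cd53, 4 of Cd52, 6 of Spn, 12 of Laptm5 and 7 of Cd48, against 5.96% of all probe sets. ES13 and ES14 both lay below every other array in 6 of the 17 probe sets of Cd34, where 1.59% of all probe sets did.

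A few probe sets stood at one level in all arrays and did not follow their gene. For Cd48, 5565515 averaged 8.68 in 129S2/SvPas and 8.76 in C57BL/6, and 4913375 and 5339912 stayed between 1.64 and 1.80 on average in both labels. For Laptm5, 4512904 averaged 7.44 in 129S2/SvPas and 7.57 in C57BL/6. For Spn, 5 probe sets differed by 3.51 to 4.47, while 4511706 differed by 0.64 and 5356686 by 0.41. The probe set 4511706 averaged 11.37 in 129S2/SvPas and 10.73 in C57BL/6. Another probe set of Spn, 4350077, had a median of 9.53 in ES1 to ES12 and medians between 3.74 and 4.49 in the other runs. The Spn gene value draws on both kinds of probe set, so its range is smaller than that of these 5 probe sets. The position of probe sets along the genes was not used here, so none is tied to an exon.

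The 53 probe sets of Ptprc spanned most of the scale of the array. Their medians over ES1 to ES12 lay between 2.90 and 12.61, and over ES13 and ES14 between 1.72 and 11.23. The 27 brighter probe sets, from which the gene value is taken, differed from one another by 4.06 log2 units in their medians over ES1 to ES12. The brightest over all arrays, 5122514, had the smallest difference between labels of the 53, 0.30 ± 0.12 (SE) with an adjusted p of 0.0385 in limma. Its median was 10.67 in ES1 to ES12, 11.23 in ES13 and ES14, 10.66 in ES15 to ES20, 10.15 in ES21 to ES24 and 10.09 in ES25 and ES26. At the other end, 4720179 had medians from 2.18 to 2.96 and 4608276 from 1.59 to 2.90 over the runs, so these remained dim also where the gene was high. The one probe set not called between labels was 4720179, with a difference of 0.46 ± 0.21 (SE) and an adjusted p of 0.0867.

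**Figure D3:**
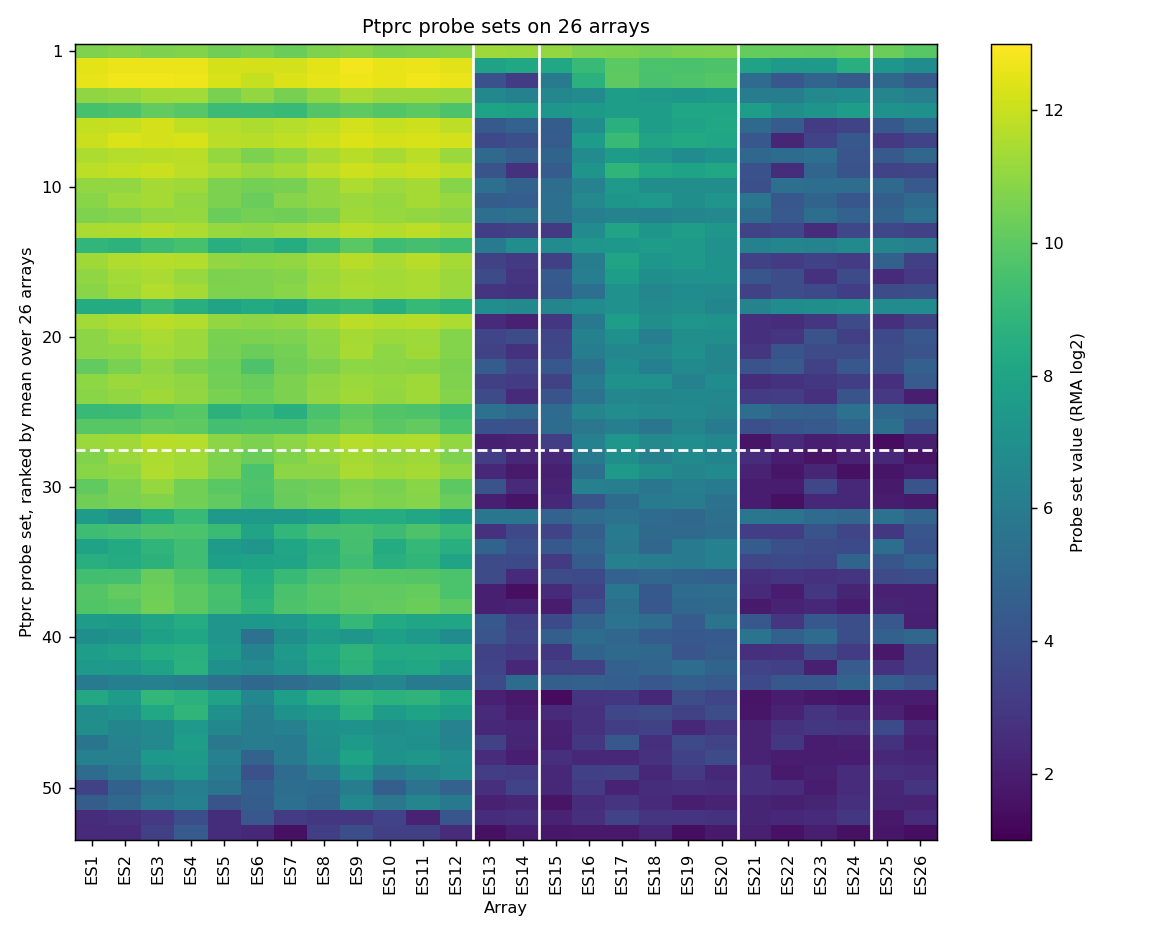
Values of the 53 Ptprc probe sets (rows, ranked by their mean over 26 arrays, brightest at the top) on the 26 arrays (columns, in title order), with colour giving the RMA log2 value. White vertical lines separate the title runs, the dashed line lies below the 27 brighter probe sets, the first row is bright in all columns, and the last 2 rows are dim in all columns.

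Relative to the gene, meaning the probe set value minus the Ptprc gene value of the same array, the brighter probe sets kept nearly constant values over ES1 to ES12. Ptprc varied little there and its gene value is the median of these same probe sets, so narrow ranges follow in part from that. The range of a relative value over these 12 arrays had a median of 0.37 over the 27 brighter probe sets and was at most 0.99. Over ES15 to ES20 the same range had a median of 1.25 and was at most 3.37. ES15, where the Ptprc gene value was 4.52, set much of this width: without it the median was 0.65 and the widest range 1.05, a choice made after the data were seen. The test of relative values between labels, limma on 132532 probe sets against a minimum difference of 1 log2 unit, called 0 of the 30 Ptprc probe sets that passed the filters on dim genes and probe sets, where it called 0.403% of all, 0.183% lower and 0.22% higher. The filters used means over all 26 arrays. Ptprc passed at 7.94, where the median gene had 7.33, through its high values in ES1 to ES12. Its mean was 5.46 in C57BL/6, so the test cannot tell a departure of a probe set from the low gene value there. Of the 30, 4 had an unadjusted p under 0.05. With no minimum difference, 11 were higher and 8 lower, where 21.9% of all were called in either direction.

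The count depended on ES13 and ES14, the arrays labelled 129S2/SvPas with low Ptprc. Without both, 5 of the 30 were called, all lower relative to the gene in 129S2/SvPas, where 1.6% of all were called. They were 4615486, 4665271, 4667430, 5065221 and 5122514. Without ES13 alone or ES14 alone, 4 of these were called, all but 4665271, where 0.884% and 0.899% of all were called. Without both, the relative value of 5122514 averaged -0.42 ± 0.21 (SD, n = 12) in 129S2/SvPas and 4.97 ± 1.25 (SD, n = 12) in C57BL/6. The difference was -5.39 ± 0.35 (SE). The relative value of 4667430 averaged -1.96 ± 0.26 in 129S2/SvPas and 1.39 ± 0.97 in C57BL/6, a difference of -3.35 ± 0.28 (SE). The level of 5122514 itself changed little, with run medians between 10.09 and 11.23. Its relative difference is thus mostly the gene difference of 5.61 with the sign reversed. The C57BL/6 averages include arrays with low Ptprc. Each of these 5 probe sets had a median of 4.91 or more in every run, above the gene value of 3.95 to 4.42 in the arrays with low Ptprc. For 4615486 the medians were 8.55 in ES1 to ES12 and between 6.76 and 6.91 in the other runs. For 5065221 they were 9.71 in ES1 to ES12 and between 7.10 and 7.90 in the other runs.

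Since the Ptprc gene value lay between 3.95 and 4.42 in ES13, ES14 and ES21 to ES26, the relative values are described for the other runs. ES15 belongs to one of these by its title, although its gene value of 4.52 was close to that range, so counts are given with and without it. Of the 53 probe sets, 11 had each relative value of ES15 to ES20 above each of ES1 to ES12, where 4.08% of all probe sets did. In 5 each was below, where 4.4% of all probe sets did, and in 37 the ranges overlapped. Without ES15, 12 were above, where 4.73% of all probe sets were, 5 were below, where 5.07% were, and 36 overlapped. Without ES19, 13 were above and 8 below. Among the 27 brighter probe sets, 6 were above and 4 below. The shares over all probe sets were not computed for the counts without ES19 or for brighter probe sets, so these counts are not read further. The 11 above had medians in ES13 and ES14 from 1.72 to 11.2, and shifts in median relative value, ES15 to ES20 minus ES1 to ES12, from 1.10 to 4.00. A relative value rises by the fall of the gene value where the probe set stays at 1 level. The largest shift was that of 5122514, with medians of 10.67 in ES1 to ES12 and 10.66 in ES15 to ES20. The dim 4720179 shifted by 3.99, with medians of 2.96 and 2.81. The shares over all probe sets are not matched for such a fall. The 5 below had medians in ES13 and ES14 from 2.11 to 3.10, and shifts from -1.12 to -0.40. The probe sets above thus included both the brightest and the dimmest in arrays with low Ptprc, and those below were all dim there.

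Among the 11 above, 5604003 had a median relative value of 2.54 in ES15 to ES20, with a range of 2.49 to 3.69, and of 1.44 in ES1 to ES12, with a range of 1.25 to 1.62. Its level was 9.58 in ES15 to ES20 and 12.54 in ES1 to ES12, and 8.06 in ES13 and ES14. Among the 5 below, 4518366 had a median relative value of -0.41 in ES15 to ES20, with a range of -1.06 to -0.18, and of 0.12 in ES1 to ES12, with a range of -0.08 to 0.23. Its level was 6.63 in ES15 to ES20, 11.30 in ES1 to ES12 and 2.76 in ES13 and ES14.

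**Figure D4:**
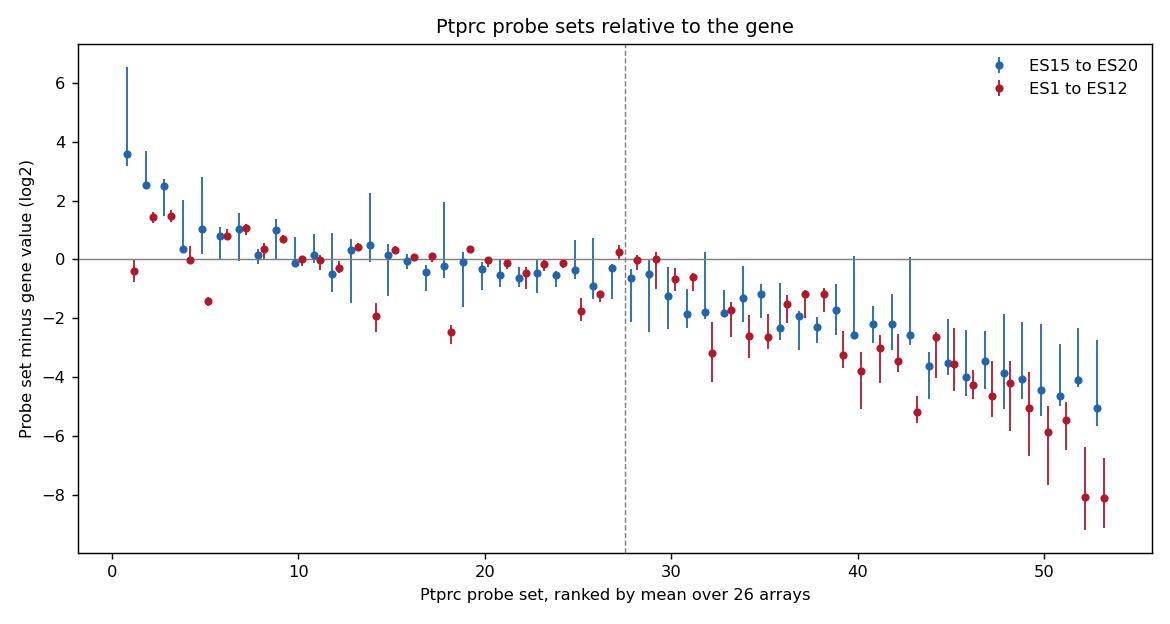
Ptprc probe set value minus Ptprc gene value (y axis, log2) for the 53 probe sets ranked by their mean over 26 arrays (x axis), as median (point) and full range over arrays (bar) for ES15 to ES20 and for ES1 to ES12. The bars of ES15 to ES20 are mostly longer, 11 of them lie wholly above those of ES1 to ES12 and 5 wholly below, and the dashed line separates the 27 brighter probe sets.

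The genes with profiles most like that of Ptprc were sought among 16677 genes over the 26 arrays. Likeness was the root mean square difference of the profiles after each was centred on its own mean, in log2 units, where 0 would be an identical profile. The nearest were Arhgef6, a guanine exchange factor, at 0.33, the cytokine receptor chain Csf2rb at 0.40, the Fc receptor genes Fcgr3 at 0.41 and Fcer1g at 0.43, and the integrin chain Itgb2 at 0.45. Among the members, Cd53 was at 0.60, Cd52 at 0.68, Cd48 and Laptm5 at 1.26 each, Spn at 1.60, Cd34 at 2.66 and Slamf1 at 3.13. The profile of Ptprc itself had a root mean square of 3.07, and that of Spn 1.64. Profiles were not rescaled, so a distance also holds the difference in the size of 2 profiles. For Cd34 the nearest were Ikzf2 at 0.72, Hk1 at 0.84, Bnip3 at 0.85, and Man1a and Pde6d at 0.86 each, against 1.30 for Cd34 itself. These are descriptions over arrays that share a series and fall into runs.

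Within ES1 to ES12 the neighbours changed. Those of Ptprc were Tiparp at 0.084, the lysosomal genes Psap at 0.087 and Ctsd at 0.095, Rab5b at 0.098 and the lysozyme gene Lyz2 at 0.10, where Ptprc itself had 0.28. Cd53 was at 0.12 and Laptm5 at 0.22, but Cd52 was at 0.62 and Cd48 at 0.60. Those of Cd34 were Rasgrp1 at 0.34, Cd59a at 0.37, Slc39a8 at 0.38, Csgalnact1 at 0.39 and Ctla2a at 0.41, where Cd34 itself had 1.15. Cd48 was at 0.72 from Cd34 and the other members at 1.12 or more. For Slamf1, whose neighbours were looked up after its values were seen, the nearest over 26 arrays were Treml1, a receptor of platelets, at 0.34, Ccser1 at 0.36, Lrrc7 at 0.36, Zfp804a at 0.38 and Mpig6b, another platelet receptor, at 0.39.

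Of the SLAM family and its adaptors, 12 genes were tested, with Cd48 and Slamf1 among them. Of these, 8 were higher in 129S2/SvPas and 0 lower, where 21.1% of all genes tested were higher and 22.1% lower. The median difference was 1.25, where all genes tested had a median of -0.0015. Besides Cd48, the largest were Cd84 at 3.67 ± 0.63 (SE), Cd244a, the receptor for CD48, at 2.27 ± 0.31, the adaptor Sh2d1b1 at 2.09 ± 0.37 and Ly9 at 2.01 ± 0.29, all with adjusted p of 4.71e-05 or less in limma. In the RefSeq annotation Cd244a, Ly9, Slamf7, Cd48, Slamf1, Cd84 and Slamf6 follow one another on chromosome 1, with 1 pseudogene between Cd48 and Slamf1. The medians of Slamf1 and its neighbour Cd84 were 5.77 and 7.09 in ES15 to ES20 and 4.35 and 10.26 in ES1 to ES12. Cd84, like Ptprc, was thus intermediate in ES15 to ES20, while its other neighbour Cd48 was not, with 5.03.

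Of 15 tested substrates and partners of CD45, 9 were higher and 4 lower, with a median of 0.84. Of all genes, 21.1% were higher and 22.1% lower. The phosphatase Ptpn22 was higher by 3.39 ± 0.50 (SE), the Src-family kinase Fgr by 2.95 ± 0.50 and the phosphatase Ptpn6 by 2.91 ± 0.44, while the Src-family kinase Yes1 was lower, at -3.54 ± 0.44. Of 20 receptor-type tyrosine phosphatases, Ptprc included, 4 were higher, which is near the share of all genes, and 8 lower, with a median of -0.14. Ptpre was higher, by 2.96 ± 0.41, and Ptprk was lower at -3.72 ± 0.44, Ptprm at -2.17 ± 0.24 and Ptprd at -2.10 ± 0.52. Ptprk was 4.29 to 5.42 in ES1 to ES12, below all other arrays, which had 8.51 to 9.57.

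Of 28 tetraspanins, Cd53 included, 6 were higher and 13 lower, with a median of -0.26. The higher ones were near the share of all genes, of which 21.1% were higher and 22.1% lower. Cd37, a tetraspanin of leukocytes, was higher by 3.38 ± 0.55 (SE), and Tspan6 was lower at -4.63 ± 0.63, Tspan12 at -3.93 ± 0.62 and Tspan9 at -3.17 ± 0.33. Of 11 sialomucins and related selectin genes, Cd34 and Spn included, 3 were higher and 6 lower, with a median of -0.40. Selplg, the selectin ligand PSGL-1 of leukocytes, was higher by 4.83 ± 0.64, with 11.2 to 12.0 in ES1 to ES12 against 5.18 to 6.86 in the others. Podxl, the CD34-related podocalyxin, was lower at -2.23 ± 0.46, the endothelial mucin gene Emcn at -1.66 ± 0.51 and Selp at -1.26 ± 0.40. Emcn was between 7.41 and 9.05 in ES15 to ES20 and between 4.04 and 5.17 in all other arrays.

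Of 11 LAPTM family genes and ligases of the Nedd4 family, Laptm5 included, 2 were higher and 6 lower, with a median of -0.47. The higher ones were near the share of all genes, of which 21.1% were higher and 22.1% lower. Laptm4b was lower at -1.63 ± 0.38 (SE), Nedd4 at -0.81 ± 0.11, Smurf1 at -0.78 ± 0.17 and Laptm4a at -0.64 ± 0.11. Of 14 splicing regulators linked to the variable exons of Ptprc, 2 were higher and 1 was lower, with a median of -0.10. Ptbp3 was higher by 1.35 ± 0.20 and Thrap3 by 0.29 ± 0.08. Ptbp1 was lower at -0.26 ± 0.11, with an adjusted p of 0.0496 that was above the threshold in 19 of the 26 fits with 1 array left out. Hnrnpll, the regulator best known for silencing these exons in activated lymphocytes, had medians between 10.1 and 10.6 in the 5 runs and a difference of -0.04 with an adjusted p of 0.807.

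Of 14 leukocyte transcription factors, 12 were higher and 0 lower, with a median of 1.78, where 21.1% of all genes were higher and 22.1% lower. Fli1 was higher by 3.68 ± 0.59 (SE), Myb by 3.65 ± 0.36, Ikzf1 by 3.44 ± 0.52, and Spi1, the gene of PU.1, by 3.04 ± 0.44. Spi1 lay between 10.3 and 11.5 in ES1 to ES12, between 7.44 and 8.21 in ES15 to ES20 and between 6.22 and 7.54 in the other 8 arrays. Fli1, which endothelial cells also make, lay between 11.0 and 11.6 in ES1 to ES12, between 8.63 and 9.49 in ES13 and ES14, between 8.62 and 10.0 in ES15 to ES20 and between 4.89 and 5.65 in ES21 to ES26. For the factors as for the members, the label difference thus combines arrays of unlike level.

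**Figure D5:**
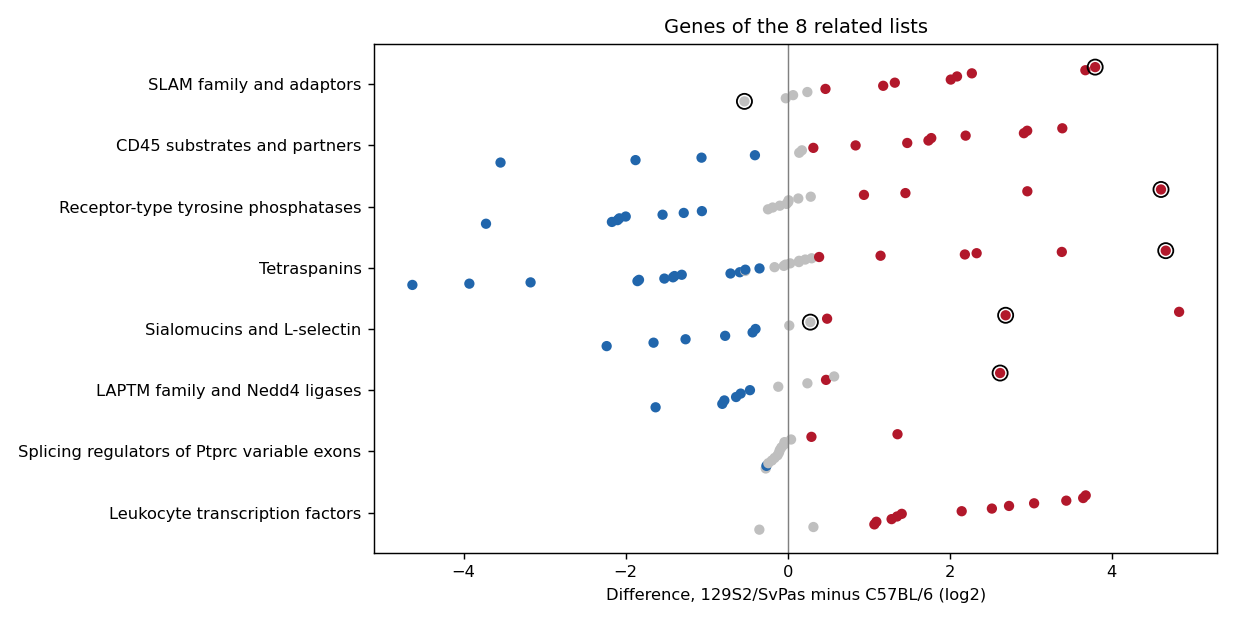
Difference of each tested gene of the 8 related lists (x axis, log2, 129S2/SvPas minus C57BL/6; rows are lists), with red for genes higher past the threshold, blue for lower and grey for neither. Black rings mark the 8 genes described here where a list holds them, and the leukocyte transcription factors and SLAM genes hold no blue point.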

How the data were processed

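RNA of 26 mouse samples was measured on the Affymetrix Mouse Exon 1.0 ST array. Per the labels' protocols, a column kit and an RNase inhibitor were used for isolation, DNase was applied, and the RNA was amplified in 2 rounds and labelled as cDNA, which can change the ratio of probe sets along a transcript. The deposited log2 values are RMA values per probe set, made by extended-exon analysis with Affymetrix Expression Console, per the labels. Its version, its settings and the genome build are not given in the sources used here. Base 2 follows RMA convention and fits the range of 0.831 to 15.6. Array medians lay between 5.32 and 5.51, 0 values were missing and 0 pairs of arrays were identical. Arrays give no read depth, so their number limits the precision.

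In the platform annotation 306069 probe sets (48.4%) had 1 symbol, 6067 had several and 319612 had none. RefSeq (GRCm38.p6) held 17747 of the 21757 symbols as current, 3725 were replaced through a synonym that was unique, and 285 stayed as given. Genes were tested if at least 4 probe sets carried their symbol. The tool was limma 3.58.1 under R 4.3.3, by lmFit, then eBayes with a trend, two-sided, at 0.05 after Benjamini-Hochberg adjustment, as 129S2/SvPas minus C57BL/6. Relative probe set values were tested without a trend, against a minimum difference of 1 log2 unit, for genes and probe sets above the median of their means. The steps were tested on simulated data. The 8 members, the lists and the title runs were chosen with earlier results of these data known. Named genes were the members, up to 4 others in each list by the size of a difference that passed, and the 5 nearest profiles. Alternatives varied the gene summary, filters, scaling, test settings, thresholds and the arrays included.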

Additional observations from a re-analysis of the deposited data

How the results depend on the processing

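The 6 members called were called again with each of the 26 arrays left out, and the counts then ranged from 6 to 6 for the members, 7536 to 8631 for all genes called (3659 to 4265 higher, 3830 to 4366 lower), 83 to 88 for list genes called and 0 to 4 for relative Ptprc probe sets. As reported these were 6, 7931 (3876 higher, 4055 lower), 84 and 0. The relative Ptprc count was 2 with no filter on dim probe sets, 19 with no minimum difference and 5 without ES13 and ES14. Against a minimum difference of 1 log2 unit, 1094 genes were called (511 higher, 583 lower), with 29 list genes and 5 members, Laptm5 being the one lost. Without the dimmer 50% of genes, 4841 were called (2764 higher, 2077 lower), with 54 list genes and 5 members, since Cd48 was then not tested. With at least 8 probe sets 4 members were called, since Cd52 and Spn were then not tested. With arrays centred on their median, all genes had a median difference of 0.06 and 56.2% of the calls were higher, against 48.9% as reported, which left the same 6 members called.

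Without ES1 to ES12, 1 gene was called (1 higher, 0 lower), with 0 list genes and 0 members, while 1814 genes had an unadjusted p under 0.05. Differences that then changed sign, none of them past the threshold, were Ptprc -1.42, Cd53 -2.36, Cd48 -0.39, Cd52 -1.30, Spn -0.37, Laptm5 -2.57, Cd34 -2.61 (adjusted p 0.119), Cd84 -0.30, Cd244a -0.10, Sh2d1b1 -0.30, Ly9 -0.030, Ptpn22 -0.69, Fgr -0.81, Ptpn6 -0.41, Ptpre -0.066, Tspan6 0.27, Tspan12 1.08, Cd37 -1.15, Selplg -0.53, Podxl 1.37, Laptm4b 0.26, Ptbp3 -0.15, Ptbp1 0.15 and Spi1 -0.39. This setting leaves 2 arrays against 12. No paired analysis was possible because the labels give the groups no shared replicate numbers. Dim probe sets near the floor of the scale limit relative values where a gene is low.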
